A study of Mus musculus with 6 samples.

Results

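The wild-type splenic dendritic cell is described here at baseline, from 3 of the 6 samples of the series, those labelled wild type. The samples were taken by that label, with earlier results of these data known, and no contrast with the knockout samples was made. Knockout values entered only an alternative choice of probe sets, by the mean over all 6 samples. Each sample was total RNA of CD11c+ cells sorted from the spleens of C57Bl/6 mice by flow cytometry and hybridised to 1 Affymetrix 3' expression array. The other 3 samples of the series came from Map3k7-CreER mice. All mice, the wild type included, had received tamoxifen in vivo for 3 days, so the baseline is that of tamoxifen-treated animals. The labels give neither age nor sex, and they do not say whether the 3 wild-type samples came from separate animals, so every spread and p-value below measures only the variation between these 3 samples, which may be technical.

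Conventional dendritic cells take up antigen in the spleen, display it as peptides on MHC class II and class I molecules, and show it to T cells. They fall into a CD8a+ branch, known as cDC1, that depends on Irf8 and Batf3 and presents antigen from dead cells, and a CD11b+ branch, known as cDC2, that depends on Irf4 and Notch2 and primes helper T cells. Plasmacytoid dendritic cells, a relative that depends on Tcf4 and makes type I interferon, carry less CD11c. A sort on CD11c therefore collects a mixture, and in such bulk RNA fewer cells of a type and less RNA per cell cannot be told apart.

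The 3 arrays held 17097 genes that the annotation names by a single symbol, each read from its probe set with the highest wild-type mean. Values are RMA signals on a log2 scale, on which a step of 1 is a doubling of signal. The array medians were 3.77, 3.81 and 3.802. A floor was taken from 79 olfactory, vomeronasal and trace-amine receptor genes, which serve smell and are not known to act in dendritic cells. Their 95th percentile, the reference ceiling, was 3.78, 3.89 and 3.90 on the 3 arrays. A gene is said to be above the ceiling where the limma fit over all probe sets placed it there at a Benjamini-Hochberg adjusted p under 0.05, and bright where it also stood at least 2 above the ceiling on the log2 scale, a 4-fold higher signal. Ranks and percentiles order array signals and not molecules, since probe sets bind with different strength, and RMA's quantile step removes differences in total RNA between samples. An array has no read depth, and having only 3 of them limits how precise each value is. Of 600 genes on the lists used below, 77 were not analysed here and the rest came to 522 measured genes, since a pair of names met in the same gene. The 77 included B2m, Ccr7, Clec9a, Siglech, Bst2, Tap1 and Tap2.

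The class II genes supplied the brightest immune transcripts of these cells, and their start regions share a short element. Of 10 class II genes on the array, 8 have a promoter in the RefSeq table (build GRCm38.p6), and 7 of those 8 hold the letters TGATTGG on the gene's own strand within the 300 bases that run from 250 before to 50 after the annotated start. These letters are the core of the Y box, the element of class II promoters that the factor NF-Y is known to bind. Both strands were searched (reverse complement CCAATCA), and the letters were chosen after the promoters had been read. Among all 27025 genes with a promoter there 9.0% hold them, and among the 76 of the 100 brightest genes with such an entry the share is 13.2%. A match is a description of the sequence and not a measured binding site. H2-DMa, with 2 annotated starts, does not hold the letters in either window. The stretches around the element are shown for 4 genes whose signals follow, H2-Aa (chr17:34287827-34287933, minus strand), H2-Eb1 (chr17:34305746-34305852, plus strand), H2-DMb1 (chr17:34153068-34153174, plus strand) and H2-Ob (chr17:34238786-34238892, plus strand), 5′ to 3′ on the gene's strand with the element in capitals.
H2-Aa: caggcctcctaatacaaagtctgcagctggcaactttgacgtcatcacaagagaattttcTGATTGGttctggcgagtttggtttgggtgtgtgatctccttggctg
H2-Eb1: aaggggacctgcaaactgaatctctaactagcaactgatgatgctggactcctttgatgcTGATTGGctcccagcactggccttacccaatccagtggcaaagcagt
H2-DMb1: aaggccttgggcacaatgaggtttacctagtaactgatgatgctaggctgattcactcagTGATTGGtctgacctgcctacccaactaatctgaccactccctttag
H2-Ob: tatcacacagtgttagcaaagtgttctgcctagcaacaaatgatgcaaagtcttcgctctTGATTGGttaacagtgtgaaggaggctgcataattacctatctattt

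In these stretches the element begins 50 bases before the start in H2-Aa, 61 in H2-Eb1, 63 in H2-DMb1 and 59 in H2-Ob. All 4 genes were bright on every array. H2-Aa, the alpha chain of I-A, read 13.70, 13.71 and 13.55, and H2-Eb1, the beta chain of I-E, read 13.59, 13.55 and 13.52. H2-DMb1, a chain of the peptide editor H2-DM, read 11.20, 11.16 and 10.98, and H2-Ob, a chain of the H2-DM inhibitor H2-O, read 10.54, 10.23 and 10.24. The widest range over the arrays was that of H2-Ob, 0.31.

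Most of what these cells transcribed strongly was shared machinery, and the immune genes at the very top were those of antigen presentation. Of 17097 genes, 8952 (52.4%) were above the ceiling, 6477 (37.9%) were bright, 5175 (30.3%) were below it and 2970 were neither. The signals were far from even: 7720 genes (45.2%) had a mean between 3 and 4, close to the array medians, while 931 (5.45%) lay between 10 and 12 and 62 (0.363%) lay at 13 or more. Among the 79 smell receptor genes 3 were above the ceiling, and the median of the 79 was 3.40. The ceiling was the 95th percentile of these same genes, so that count was largely fixed in advance and does not check the calls. A gene not above the ceiling was not told apart from such receptors, which does not show that its transcript is absent. Of genes with several probe sets 67.5% were above the ceiling, against 41.4% of genes with a single probe set. Each gene was read from its highest probe set, and whether this accounts for the gap was not tested. Of the smell receptor genes 93.7% have a single probe set.

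**Figure D1:**
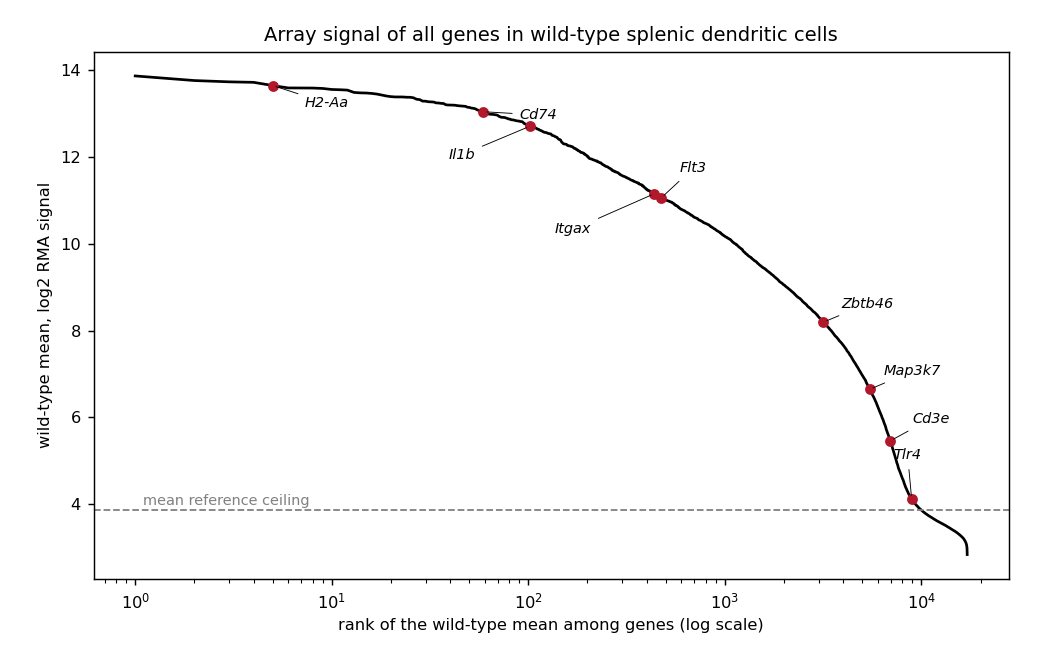
Wild-type mean log2 RMA signal (vertical axis) of all 17097 genes against the rank of that mean (horizontal axis, log scale), with the mean reference ceiling dashed. H2-Aa (rank 5) and Cd74 (mean 13.05) lie on the upper plateau, Itgax (11.16) and Flt3 (11.07) where the curve bends, Zbtb46 (8.20) and Map3k7 (6.65) on the slope, and Tlr4 (4.12) just above the ceiling.

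The first 3 ranks went to the actin monomer binder Tmsb4x at 13.87 ± 0.03 (SD, n = 3), the cytoskeletal actin Actb at 13.77 ± 0.04 (SD, n = 3) and the thymosin Tmsb10 at 13.74 ± 0.01 (SD, n = 3). Ribosomal protein genes held 60 of the 100 highest ranks, and 79 of the 82 on the array were above the ceiling, with a median of 13.06 over all 82. Rps29 read 13.73, Rps7 13.60, Rpl37a 13.59 and Rps6 13.58 as means of the 3 arrays. Actin and actin-binding genes held 7 of those 100 ranks, among them Actg1 at 13.45, the leukocyte actin bundler Lcp1 at 12.85 and the actin-associated Coro1a at 12.84. Eef1a1, which brings aminoacyl-tRNA to the ribosome, read 13.47 ± 0.03 (SD, n = 3).

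The other immune genes within the first 100 ranks were mainly those of presentation and of leukocytes at large. H2-Aa held rank 5, and Cst3, the cystatin C gene known for its high level in splenic dendritic cells, read 13.43, 13.43 and 13.43. The leukocyte glycopeptide Cd52 read 13.18 as a mean, the granule proteoglycan Srgn 13.18, the pan-leukocyte phosphatase Ptprc 12.90, the pore-forming Mpeg1 12.86 and the signalling adaptor Tyrobp 12.86. The inflammatory cytokine Il1b followed at 12.71, at rank 102.

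Itgax, Cd74, Flt3 and Zbtb46 were read as marker genes of the labelled cells, and all 4 were bright on all 3 arrays. The cells were sorted on CD11c, so the Itgax signal does not check the label. Cd74, the class II invariant chain, read 12.997, 13.10 and 13.05. Itgax, the CD11c chain used for the sort, read 10.99, 11.17 and 11.31, and Flt3, the receptor for the growth factor on which dendritic cells depend, read 11.05, 10.90 and 11.26. Zbtb46, a repressor that marks conventional dendritic cells among myeloid cells, read 8.08, 8.26 and 8.25. Their percentiles among all genes were 99.7 for Cd74, 97.4 for Itgax, 97.2 for Flt3 and 81.4 for Zbtb46. Zbtb46 stood 4.34 above the ceiling (limma, adjusted p = 1.2e-09), and 3 of its 4 probe sets were above it, with means of 8.20, 7.37 and 6.14, while the other read 3.67.

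The wider core list of conventional dendritic cell genes was above the ceiling throughout: 24 of 24 measured members, 23 of them bright, with a median signal of 10.03. Over all genes 52.4% were above the ceiling, 37.9% were bright and the median was 4.27. The sorting nexin Snx22 read 12.06, 12.06 and 12.15, and Btla, an inhibitory receptor, read 11.09, 11.37 and 11.15. The peptidase Dpp4 read 10.62, 10.33 and 10.68, the transcription factor Bcl11a 10.09, 9.94 and 9.93 and the growth factor receptor Kit 9.60, 9.45 and 9.94. These genes varied little between samples. The member nearest the ceiling was the adhesion molecule Nectin1 at 4.60 ± 0.10 (SD, n = 3), which stood 0.75 above it (limma, adjusted p = 9.13e-05).

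Transcription factors of the lineage were nearly all present, with 24 of 25 above the ceiling and 23 bright (52.4% and 37.9% of all genes). Id2, which opposes E proteins and is needed for CD8a+ cells, read 12.32, 12.51 and 12.38, and Irf8 read 11.53, 11.94 and 11.53. Irf4, its counterpart in CD11b+ cells, read 8.79, 8.38 and 8.96, and Klf4, needed for part of the CD11b+ branch, read 10.79, 10.45 and 11.02. The myeloid factor Spi1 averaged 9.84, the lymphoid and myeloid factor Ikzf1 10.46, Bcl6 9.87, Cbfa2t3 9.36 and Nfil3 9.26. Zeb2, a repressor active in CD11b+ and plasmacytoid cells, averaged 7.20, and Prdm1 averaged 4.60 with arrays at 4.75, 3.88 and 5.15. Notch2 alone was not above the ceiling, at 3.78 ± 0.09 (SD, n = 3) on its only probe set (limma, adjusted p = 0.385), so its level was not resolved by these arrays.

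Markers of both conventional branches were present together. Of the CD8a+ cDC1 list, 17 of 18 measured genes were above the ceiling and 16 were bright, with a median of 9.94. Of the CD11b+ cDC2 list 16 of 17 were above it and 15 were bright, with a median of 8.09. Among all genes 52.4% were above the ceiling and 37.9% were bright. Xcr1, the chemokine receptor that defines cDC1, read 11.22, 11.57 and 10.74, and Cd8a read 11.02, 11.48 and 10.78. Replicate 2 was the highest and replicate 3 the lowest of the arrays for both. Cadm1, an adhesion molecule of the same cells, read 10.62, 10.73 and 10.83, Batf3 10.27, 10.57 and 10.35, and Wdfy4, needed for cross-presentation, 11.46, 11.54 and 11.55. Cd24a averaged 12.07 and the integrin chain Itgae 7.90. Fzd1, a Wnt receptor, was the member not above the ceiling, at 3.84.

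Among cDC2 genes, the signal regulatory protein Sirpa read 9.77, 9.61 and 10.17, and the adhesion molecule Esam, which marks Notch-dependent CD11b+ cells, read 8.02, 7.82 and 8.42. The members of either list did not all follow the same order over the arrays: Cd9, another cDC2 gene, read 11.52, 11.60 and 11.37. The average was 11.50 for Cd9, and the decoy receptor Il1r2 averaged 11.33, the Notch regulator Dtx1 10.60 and the lectin Cd209a 9.97. Itgam, the CD11b chain itself, read 6.41, 5.98 and 6.12, and Cd4, carried by most splenic cDC2, read 6.79, 6.79 and 7.09. Each probe set has its own affinity, so the lower signals of both surface markers do not give the share of CD11b+ cells.

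Genes of plasmacytoid cells were also read. Of 15 measured members 14 were above the ceiling and 9 were bright (52.4% and 37.9% of all genes), with a median of 6.89. The lysosomal nuclease Pld4 read 11.02, 11.15 and 11.17, the homing receptor Ccr9 9.31, 8.88 and 8.94, the interferon factor Irf7 8.30, 8.89 and 7.97, Spib 8.20, 8.17 and 8.78, and Tcf4 8.27, 8.04 and 7.80. Several of these are also known in conventional dendritic cells or B cells. The kallikrein Klk1 averaged 7.99, Ly6d 6.89, Cox6a2 5.52, Smim5 5.42 and Pacsin1 4.91. Cox6a2 and Smim5 were lower on replicate 3 (5.04 and 4.83) than on the other arrays (5.86 and 5.64 for Cox6a2, 5.72 and 5.71 for Smim5). Dntt, an enzyme of early lymphoid cells, was not above the ceiling at 3.94.

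**Figure D2:**
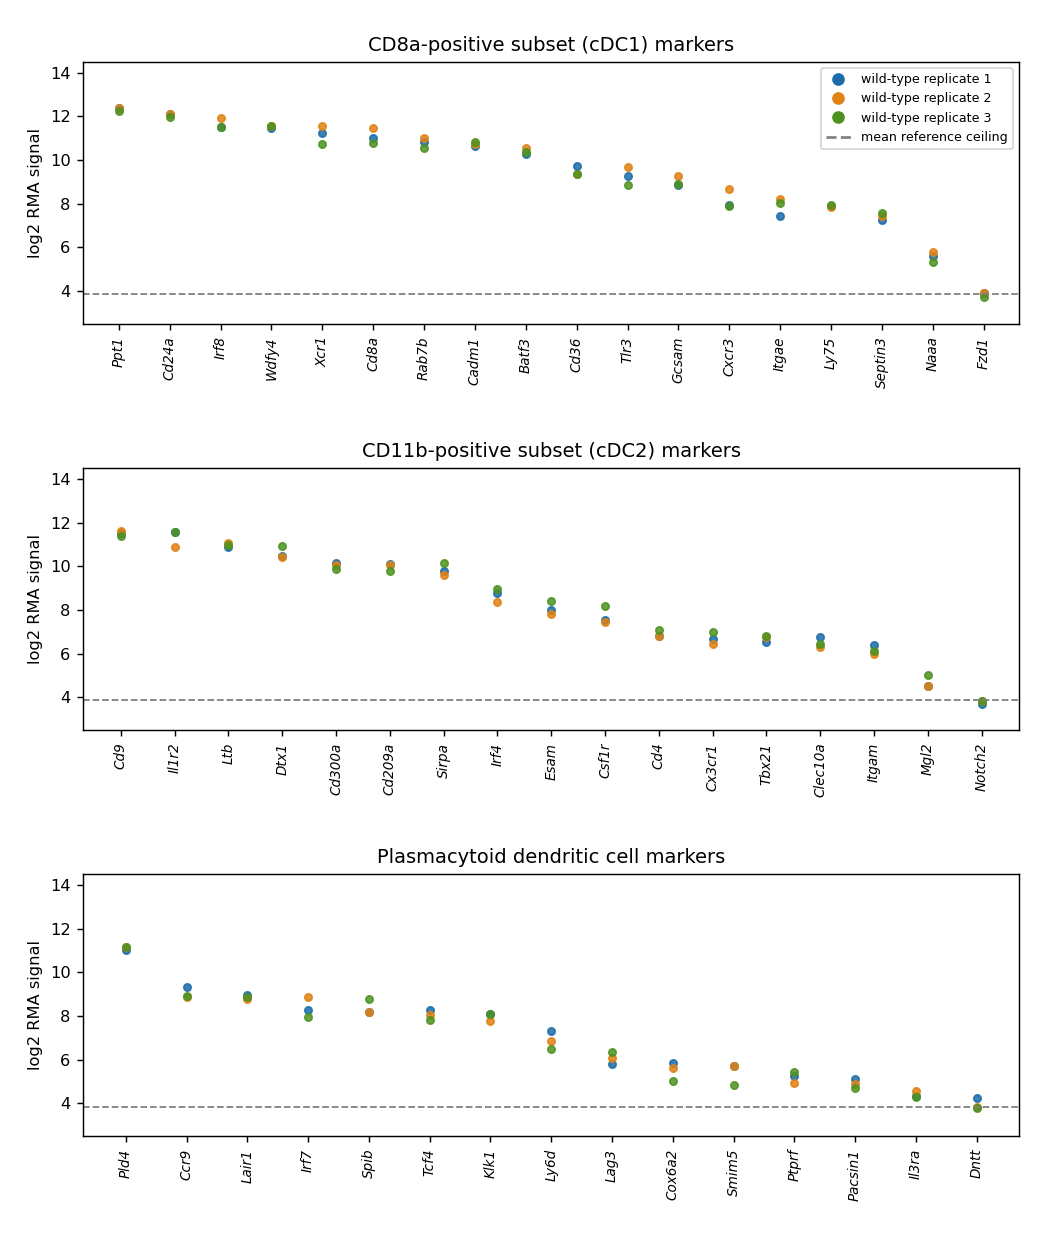
Log2 RMA signal of each measured marker of CD8a+ cDC1, CD11b+ cDC2 and plasmacytoid dendritic cells, 1 point per wild-type array coloured by replicate and ordered by mean, with the mean reference ceiling dashed. All markers except Fzd1, Notch2 and Dntt stand above the ceiling, and the 3 arrays of Xcr1 (10.74 to 11.57) spread more than those of Wdfy4 (11.46 to 11.55).

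The class II route was read throughout as far as its list went, which held no alpha chain of I-E. All 21 genes of the list were above the ceiling and 20 were bright (52.4% and 37.9% of all genes), with a median of 10.79. H2-Ab1, the beta chain of I-A, read 13.59, 13.77 and 13.43, and the H2-DM alpha chain H2-DMa read 12.08, 12.25 and 11.95. H2-Oa read 12.14, 12.19 and 11.97, H2-DMb2 11.78, 11.89 and 11.50, and H2-Eb2 9.48, 9.49 and 9.60. Replicate 2 was the highest and replicate 3 the lowest for H2-Ab1, H2-DMa, H2-Oa and H2-DMb2, and among these 4 genes the widest range over the arrays was that of H2-DMb2, 0.40. In the whole list it was that of Rfxap, 0.729.

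The proteases and regulators of the route were read as well. Ctss, the cathepsin that trims the invariant chain in dendritic cells, read 13.02, 12.98 and 12.96, and Ifi30, a lysosomal thiol reductase, 12.49, 12.56 and 12.56. Ctsb averaged 10.79, Ctsl 8.33, the legumain gene Lgmn 7.998 and Ctsd 7.74. Ciita, the class II transactivator, read 9.76, 9.93 and 10.30, and Marchf1, the ligase that removes class II molecules from the surface of resting cells, 10.12, 9.84 and 10.07. Of the RFX subunits that bind class II promoters, Rfx5 averaged 8.73, Rfxap 8.23 and Rfxank 5.34, the last on 1 of 2 probe sets above the ceiling.

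The class I route was read only in part, since B2m, Tap1 and Tap2 were not analysed here. Of 24 genes listed 19 were measured. All 19 were above the ceiling and 18 were bright (52.4% and 37.9% of all genes), with a median of 11.33. The classical heavy chains H2-K1 (13.01, 13.13 and 13.12) and H2-D1 (12.84, 12.999 and 12.90) were both among the 100 highest ranks. Their sequences are close to those of other class I genes, so some of this signal may come from relatives. The immunoproteasome subunits Psmb8, Psmb9 and Psmb10 averaged 12.20, 11.91 and 10.62, the proteasome activators Psme1 and Psme2 12.55 and 11.81, and tapasin (Tapbp) 11.60. The class I transactivator Nlrc5 read 8.21, 8.77 and 8.83. Pdia3, a disulfide isomerase of the peptide loading complex, read 4.90 as a mean on its only named probe set. Cd1d1, which presents lipids, averaged 9.95, while Cd1d2 was not above the ceiling at 3.65.

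Toll-like receptors, which sense microbial products, were uneven: 9 of 10 were above the ceiling but only 4 were bright, and the median was 5.27. The shares over all genes were 52.4% above the ceiling and 37.9% bright. Tlr3, the receptor for double-stranded RNA that is known in CD8a+ cells, read 9.25, 9.66 and 8.85. Tlr1 read 8.83, 8.64 and 8.77, Tlr2 8.66, 8.26 and 8.59, and the single-stranded RNA receptor Tlr7 8.06, 7.38 and 7.91. These 4 were the bright receptors. Tlr12 (5.33), Tlr6 (5.21), Tlr5 (4.71) and Tlr9 (4.54) were above the ceiling by less than 2 on the log2 scale. Tlr4, the receptor for lipopolysaccharide, read 4.14, 4.12 and 4.09, only 0.26 above the ceiling (limma, adjusted p = 0.0236), with 1 of its 2 probe sets above it, and Tlr8 was below it at 3.21.

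Of the partners of these receptors, 13 of 15 were above the ceiling (86.7%, beside 52.4% of all genes) and 11 were bright. Ly86, the MD-1 partner of Cd180, read 12.32, 12.18 and 12.30, the chaperone Hsp90b1 averaged 11.18, and Unc93b1, which escorts nucleic acid sensing receptors to endosomes, 9.70. The adaptor Myd88 averaged 8.78 and the kinase Irak1 9.19, against 5.86 for the adaptor Ticam1 and 5.66 for the ligase Traf6. Ly96, the MD-2 partner of Tlr4, read 6.66, 6.65 and 7.10, and the co-receptor Cd14 8.07, 7.17 and 7.89. Irak3 (3.86) and Lbp (3.74, 3.92 and 3.74) were not above the ceiling.

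C-type lectins, which bind sugars of microbes and dying cells, gave 16 of 23 above the ceiling (69.6%, beside 52.4% of all genes), 12 of them bright, with a median of 6.20. Clec7a, the beta-glucan receptor Dectin-1, was the brightest and varied most among the bright ones after Cd209d, at 11.85, 11.17 and 12.25. Cd209a averaged 9.97, Clec4a2 8.88, langerin (Cd207) 8.19, Clec4n, the Dectin-2 gene, 8.13, and Ly75, the uptake receptor DEC-205, 7.89. Clec4e (3.81), Clec4d (3.76) and Cd209b (3.87) were not above the ceiling, and Clec5a (3.38) and Cd209c (3.29) were below it. The mannose receptor Mrc1 read 6.60, 5.63 and 6.37, lowest on replicate 2.

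Cytosolic sensors were present in most cases, with 13 of 15 above the ceiling, 12 bright and a median of 8.24. The inflammasome adaptor Pycard averaged 10.46 and Casp1 read 9.12, 9.07 and 8.81. The sensor Nlrp3 read 8.48, 8.13 and 8.74. Sting1 averaged 8.94 and its upstream enzyme Cgas 6.85, while Ifih1, the MDA5 gene, averaged 8.42. Ifi204 (4.05) was not above the ceiling and Nlrp6 (3.53) was below it. Of scavenger and uptake receptors, 10 of 16 were above the ceiling (62.5%, near the 52.4% of all genes) and 5 were bright, with a median of 4.42. Cxcl16 averaged 10.11 and Cd36 9.49, and Marco (3.62), Cd163 (3.81), Stab1 (3.75) and Timd4 (3.61), known from tissue macrophages and sinus lining cells, were not above the ceiling.

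**Figure D3:**
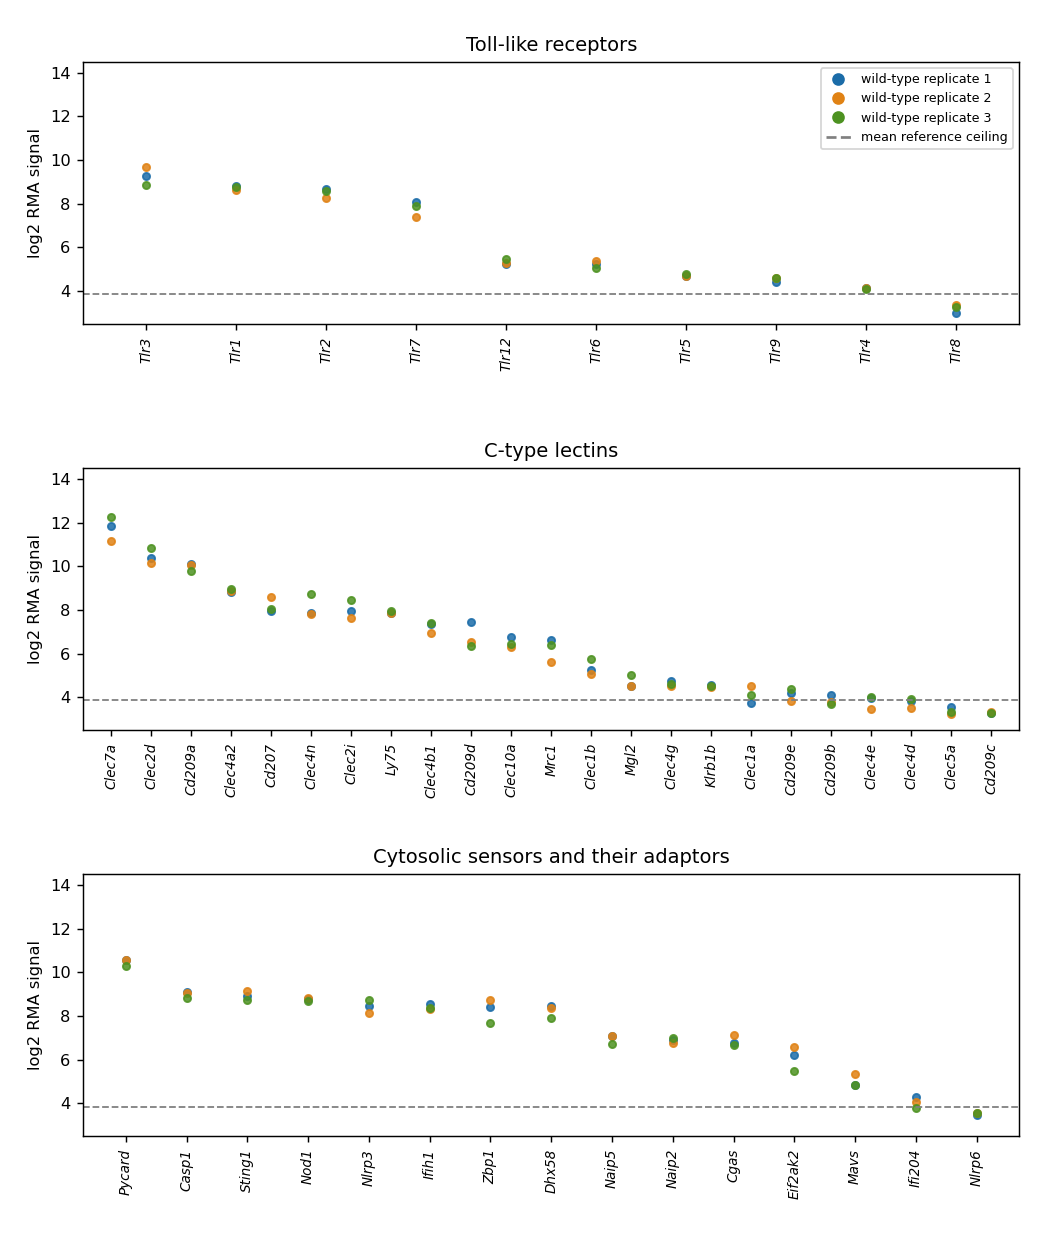
Log2 RMA signal of Toll-like receptors, C-type lectins and cytosolic sensors, 1 point per wild-type array coloured by replicate and ordered by mean, with the mean reference ceiling dashed. Tlr3, Tlr1, Tlr2 and Tlr7 form a group between 7.38 and 9.66, the other 6 Toll-like receptors lie between 3.00 and 5.47, and Clec7a stands at the top of the lectins.

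On the cell surface, 12 of 18 integrin chains were above the ceiling (66.7%, beside 52.4% of all genes) and 10 were bright. Itgb2, the beta chain that pairs with CD11c, read 11.29, 11.36 and 11.53, the integrin chain Itga4 averaged 11.05 on a gene with 5 of 5 probe sets above the ceiling, and Itgal, the LFA-1 alpha chain, averaged 10.12. Itga5 (3.15) and Itga2 (3.47) were below the ceiling. Of 15 Fc and complement receptor genes 12 were above it. The signalling chain Fcer1g averaged 11.73 and Fcgr2b, the inhibitory IgG receptor, read 9.79, 9.66 and 8.88, while Fcgr1 averaged 4.35 and Fcer1a was below the ceiling at 3.16.

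Chemokine and positioning receptors were divided, with 9 of 21 above the ceiling, 7 of them bright, and 9 below it. The share above the ceiling was 42.9%, beside 52.4% of all genes. After Xcr1 came Gpr183, the oxysterol receptor that places CD11b+ cells in the spleen, at 10.21, 10.16 and 10.24, then Ccr9, Cxcr3 (8.16), Ccr2 (8.10), Ccr6 (7.67) and Cx3cr1 (6.70). Ccr4 (3.61), Ccr8 (3.25), Ccr3 (3.45), Cxcr5 (3.60), Cxcr6 (3.57) and Cxcr2 (3.61) were below the ceiling. Of receptors for growth factors and cytokines, 23 of 27 were above the ceiling (85.2%) and 21 were bright, with a median of 8.90. Besides Flt3 and Kit these were Csf2rb, the shared GM-CSF receptor chain, at 10.11, 10.10 and 10.56, the interferon receptor chains Ifngr1 (10.86), Ifnar2 (10.13) and Ifnar1 (7.35), and the TNF receptors Tnfrsf1b (9.76) and Tnfrsf1a (9.38). Il12rb1 (3.40) and Il18r1 (3.37) were below the ceiling.

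Costimulatory and inhibitory molecules, through which dendritic cells tune T cells, gave 23 of 26 above the ceiling and 21 bright, with a median of 8.91. The shares of all genes were 52.4% and 37.9%. Cd83, a marker of activated dendritic cells, read 12.55, 12.45 and 12.64, Cd86 10.40, 10.35 and 10.44, Cd40 9.03, 9.12 and 9.11, and Cd80 8.95, 8.47 and 8.80. The phagocytosis inhibitor Cd47 averaged 12.26, the inhibitory receptor Havcr2 10.98, and the PD-1 ligands Cd274 and Pdcd1lg2 9.28 and 7.44. Tnfsf4, the OX40 ligand gene, and Cd70 were not above the ceiling, at 3.76 and 3.72.

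Within the list of genes known from activated dendritic cells, 19 of 23 were above the ceiling and 18 were bright, with a median of 8.06. The shares of all genes were 52.4% and 37.9%. Fscn1, the actin bundler of mature dendritic cells, read 12.13, 12.19 and 12.60, Relb 10.12, 10.27 and 10.64, and Socs2 8.98, 9.33 and 9.83, each highest on replicate 3. Ccl22 averaged 6.84 and Ccl17 4.17, and Il12a and Il23a were below the ceiling at 3.39 and 3.41. No unsorted or freshly fixed sample is among those described, so whether these signals were present in the spleen before the sort was not tested.

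Of secreted factors, 15 of 23 chemokines and 16 of 26 cytokines were above the ceiling, shares of 65.2% and 61.5% beside 52.4% over all genes. Ccl5 read 11.91, 12.07 and 12.43, Cxcl9, a ligand of Cxcr3, 11.99, 11.88 and 11.95, Ccl3 11.81, 11.63 and 11.49, and Ccl4 11.49, 11.17 and 11.62. Il1b read 12.77, 12.57 and 12.80 and Ltb, which maintains spleen architecture, 10.90, 11.05 and 10.96. Il12b, the subunit that IL-12 and IL-23 have in common, read 10.004, 9.79 and 10.30, while its partner genes Il12a and Il23a were below the ceiling. Il18 averaged 9.11, Ebi3 9.35, Tnf 8.06 and Il6 5.93. Ifnb1 (3.40), Ifng (3.42) and Csf2 (3.52) were below the ceiling, and Il10 (4.01) and Il1a (3.79) were not above it.

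Map3k7 encodes TAK1, the kinase that relays receptor signals to the IKK complex and so to NF-kB. In wild-type cells its representative probe set read 6.68, 6.69 and 6.57, at percentile 68.1, and 3 of its 5 probe sets were above the ceiling. Another of them read 5.83, 5.66 and 7.03, highest on replicate 3. All 20 genes of the TAK1 and NF-kB list were above the ceiling and 18 were bright, with a median of 8.25. The shares of all genes were 52.4% and 37.9%. The TAK1-binding genes Tab2, Tab3 and Tab1 averaged 11.01, 6.34 and 5.07, and the IKK subunits Ikbkb and Ikbkg 9.46 and 7.16. The feedback inhibitors Nfkbia and Tnfaip3 averaged 11.83 and 10.67, and the NF-kB subunits Relb, Rel, Rela and Nfkb2 10.34, 9.70, 9.53 and 8.01.

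Of 26 genes of survival and death, 24 were above the ceiling and 19 were bright (52.4% and 37.9% of all genes). The survival genes Bcl2a1a and Mcl1 read 12.12 ± 0.02 (SD, n = 3) and 11.96 ± 0.05 (SD, n = 3). Bcl2a1a has near-identical copies, so that signal may be shared. Pmaip1, the Noxa gene that opposes Mcl1, read 12.37, 12.09 and 12.36, and the death activator Bcl2l11 9.15, 9.21 and 9.74. Bcl2 (5.06) and Bcl2l1 (5.09) stood less than 2 above the ceiling, and of the necroptosis pair Ripk3 averaged 6.37 while Mlkl was below the ceiling at 3.49.

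All 29 cell cycle genes were above the ceiling and 26 were bright (52.4% and 37.9% of all genes), with a median of 8.56. The replication clamp Pcna read 12.26, 12.25 and 12.08 and Ccnd1 11.73, 11.90 and 11.98, and Mki67, present in cycling cells, read 9.21, 9.31 and 9.11. Several mitotic genes differed between samples by more than a log2 unit or close to it. Birc5 read 9.15, 9.62 and 8.77, Cdc20 7.42, 8.18 and 6.92, Aurkb 7.04, 7.24 and 6.21, and Ccnb2 8.22, 8.69 and 7.75. Replicate 2 was the highest and replicate 3 the lowest for all of these genes, and also for Cdk1 and Aurka. Other mitotic genes of the list did not share that order. Plk1 read 5.58, 5.51 and 5.46 and Bub1 6.93, 6.88 and 6.77, both highest on replicate 1. Replication genes had no common order: Mcm6 read 9.88, 9.82 and 10.03, Mcm7 9.48, 9.51 and 9.23, and Rrm2 8.92, 8.72 and 8.60.

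Markers of other spleen cells were examined in the same way, since a sort can carry them along. Platelet genes gave 0 of 7 above the ceiling by limma (0 at an unadjusted p under 0.05, and 1 where only every array had to exceed its ceiling), and mast cell, basophil and eosinophil genes gave 1 of 11, the histidine decarboxylase Hdc at 6.06. Stromal and endothelial genes gave 2 of 14, Kdr at 5.20 and Cxcl13 at 4.08, and the second was lost without any 1 of the arrays. T cell genes gave 4 of 12 (33.3%, beside 52.4% of all genes), with Cd5 at 6.48 and Cd3e at 5.46, and Cd3d (3.94) and Bcl11b (3.59) not above the ceiling. The mean over each list was 3.56 to 3.65 for platelets, 3.68 to 3.71 for mast cells and relatives, 3.64 to 3.67 for stroma and 4.18 to 4.25 for T cells. The part of such cells in any result above was not tested.

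B cell genes were mixed, with 8 of 13 above the ceiling and 4 bright (61.5% above it, beside 52.4% of all genes). Cd22 read 9.09, 9.29 and 9.01 and the CD20 gene Ms4a1 8.88, 8.55 and 8.38, whereas the defining genes Cd79a (3.79), Ighm (3.61), Pax5 (3.41) and Ebf1 (3.26) were not above the ceiling. Cd79b averaged 6.81. Plasma cell genes gave 3 of 5, with Xbp1, which dendritic cells also use, at 10.98 and Jchain at 4.99, 5.10 and 3.78. Without replicate 1 that count was 1. Natural killer genes gave 3 of 11, in which the lectins Klrd1 (11.06) and Klrk1 (9.33) were bright while Ncr1 (3.72), Klrb1c (3.68), Prf1 (3.83) and Gzma (3.95) were not above the ceiling. The mean over the B cell list was 5.04 to 5.27 on the 3 arrays, over the plasma cell list 5.19 to 5.55 and over the natural killer list 4.98 to 4.999.

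Lists of other myeloid cells differed in their counts. Macrophage genes gave 12 of 16 above the ceiling (75.0%, beside 52.4% of all genes) and 9 bright, with a median of 7.19 and a list mean of 6.47 to 6.56. Cd68, a lysosomal protein shared with dendritic cells, averaged 11.11, Adgre1, the F4/80 gene, read 9.53, 9.28 and 9.56, C1qa, C1qb and C1qc averaged 8.21, 8.26 and 7.25, and the red pulp genes Spic and Cd5l 7.12 and 7.26. Markers of other spleen macrophages, Siglec1 (3.78) and Marco (3.62), were not above the ceiling, and neither were Cd163 (3.81) and Timd4 (3.61). Vcam1 (5.66), Mertk (4.36) and Fcgr1 (4.35) were above it but not bright. Monocyte genes gave 7 of 11 (63.6%, near the share of all genes) with a list mean of 7.41 to 7.504. The brightest were Nr4a1 (12.64), which is also an immediate early gene and not particular to monocytes, Plac8 (12.32) and Treml4 (10.79), while Vcan (3.56) and F13a1 (3.47) were below the ceiling. Neutrophil genes gave 5 of 14 above the ceiling (35.7%), with S100a9 at 7.17, 5.77 and 7.25 and a list mean of 4.13 to 4.37. Granule genes were mixed: Mmp9 (5.35) and Ngp (4.09) were above the ceiling, while Elane (3.58), Mpo (3.55) and Ltf (3.75) were among those not above it.

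**Figure D4:**
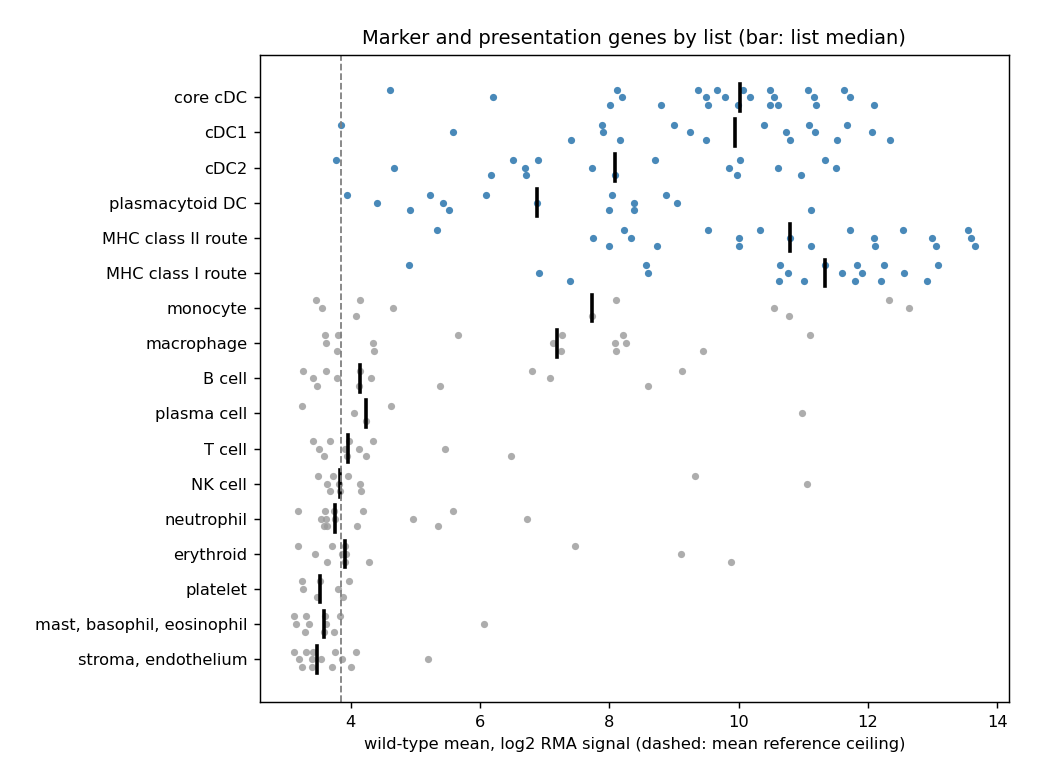
Wild-type mean log2 RMA signal of each measured gene (points) by marker or presentation list, with the list median as a bar and the mean reference ceiling dashed. Dendritic cell lists and both presentation routes have medians from 6.89 to 11.33, macrophage and monocyte lists 7.19 and 7.73, and the other 9 lists medians from 3.48 to 4.24 close to the ceiling.

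The 3 samples lay close together. The median SD of a gene was 0.14 over all genes and 0.17 over genes above the ceiling, and Pearson's r across all 17097 genes, which are not independent replicates, was 0.996 for replicates 1 and 2, 0.994 for 1 and 3 and 0.991 for 2 and 3. Replicates 2 and 3 differed by more than 1 on the log2 scale at 167 genes, against 26 for replicates 1 and 2 and 74 for 1 and 3. Of the genes above the ceiling 241 (2.69%) had an SD over 0.5, and in 161 of these replicate 3 was the array farthest from the other two, in 65 replicate 2 and in 15 replicate 1. Without replicate 3 that count was 143, and without replicate 1 it was 588. In 4 groups of 2238 genes by level, the brightest group had the smallest median SD, 0.131 against 0.171 to 0.191 in the other groups.

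The genes that varied most were few and of several kinds. Erdr1 read 10.38 and 10.73 on replicates 1 and 2 and 6.05 on replicate 3, and the carbonic anhydrase Car9 read 6.41, 6.89 and 3.91. Mmp12, the macrophage elastase, ran the other way at 9.79, 9.70 and 12.14, with Clu (4.53, 4.33 and 6.22), Insm1 (4.57, 4.80 and 6.50), Akap2 (6.13, 6.50 and 7.97) and Sema6d (5.70, 5.54 and 7.30). Igfbp5, an insulin-like growth factor binding protein, was apart on replicate 2 at 8.90 against 6.43 and 6.59. Ggh, a folate enzyme, was low on replicate 3 (7.73, 7.56 and 5.89), and the semaphorin receptor Plxnc1 was low on replicate 2 (5.81, 4.58 and 6.42). A single array stood apart in most of these genes, and 3 samples of a group allow no test between them.

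Hemoglobin transcripts moved together between samples. Hba-a1 read 10.41, 10.73 and 8.495 and Hbb-b2 9.57, 9.78 and 7.99, so both were lowest on replicate 3. Another Hba-a1 probe set read 10.01, 10.29 and 7.85, and the dimmest Hba-a1 probe set read 4.85, 4.92 and 4.28. For Hbb-b2 only 1 of 3 probe sets was above the ceiling, and the others averaged 3.59 and 3.12. The globin copies are near-identical, and their probe sets may share signal. Of the 12 erythroid genes 4 were above the ceiling (33.3%, beside 52.4% of all genes), which were globin genes and Car2 (7.47). The list mean was 5.12, 5.21 and 4.76, and the defining genes Gata1 (3.63), Klf1 (3.92), Alas2 (3.45) and Slc4a1 (3.92) were not above the ceiling. Other genes lowest on replicate 3 included the B cell genes Fcrla (7.40, 7.70 and 6.14) and Cd72 (8.82, 8.95 and 7.49) and the plasma cell gene Jchain. Fcrla and Cd72 were picked after their values were seen, and Cd72 was not on the B cell list. The mean over that list moved far less, at 5.18, 5.27 and 5.04, and its member Cd79b read 6.80, 6.85 and 6.76. Whether red cell or B cell RNA in the sort differed between samples was not tested.

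**Figure D5:**
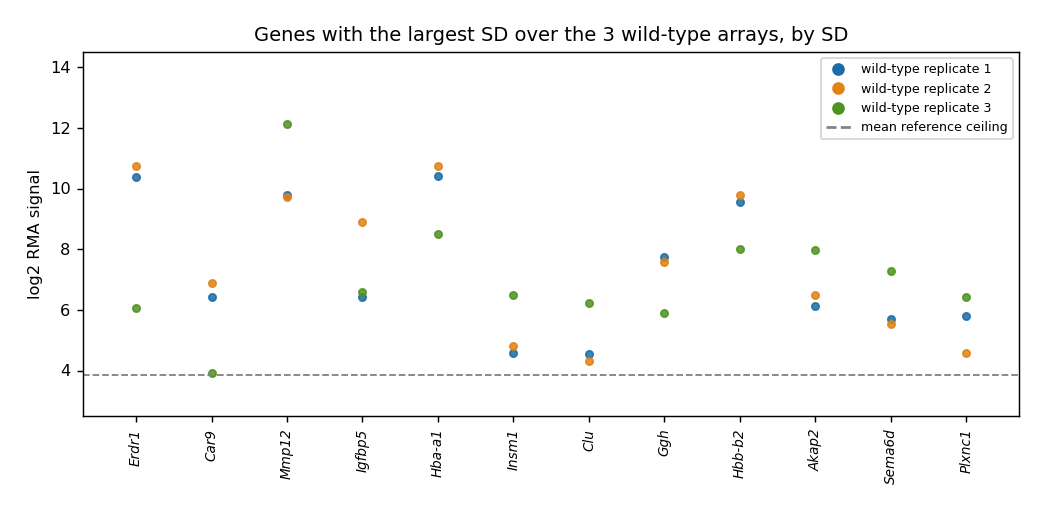
Log2 RMA signal of the 12 genes with the largest SD among those above the ceiling, unnamed clones passed over, 1 point per wild-type array coloured by replicate, with the mean reference ceiling dashed. Replicate 3 stands apart for Erdr1, Car9, Mmp12, Hba-a1 and Hbb-b2, and replicate 2 for Igfbp5.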

How the data were processed

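RNA of 3 wild-type samples was measured on 3 Affymetrix arrays. Per the submitters' processing notes, the authors made the deposited log2 values by RMA, using Affymetrix Expression Console 1.1. The array's genome build is not given in the sources used here. Of 45141 probe sets, 104 were Affymetrix controls and 45037 were used. The platform annotation gave 28898 of them 1 symbol, 551 several and 15588 none, and 28689 matched the RefSeq gene table by Entrez ID (0 symbols changed).

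The limma fit (limma 3.58.1 in R 4.3.3, lmFit and eBayes, intercept only, 2-sided) tested each probe set's value minus its array's reference ceiling, and p-values were adjusted by Benjamini-Hochberg across the 45037 probe sets. On simulated data over 45037 probe sets this step recovered 57.8% of levels 0.25 above the ceiling, 86.3% of those 0.5 above and 98.1% of those 1 above, with 276 false calls of 19088. The simulation used the same exact ceiling on every array and no level below it. It therefore does not measure the error of the calls on the real arrays. Plots used Python 3.11.15 and matplotlib 3.10.9.

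The members and the gene lists were chosen with earlier results of these data known. The rule for named genes took Itgax, Cd74, Flt3 and Zbtb46, the 30 brightest genes, the 12 genes with the largest SD, and list members at the top, near the ceiling or not above it. Other genes named were chosen after their values were seen, among them the brightest genes beyond ribosomal proteins, Fcrla, Cd72 and the immediate early genes. No set test was run. Alternatives were other ceilings, other choices of probe set, quantile normalization, other variance settings, a filter on dim probe sets, a stricter threshold and leaving out each array.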

Additional observations from a re-analysis of the deposited data

How the results depend on the processing

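The count of genes above the ceiling ranged from 7390 (ceiling at the array median plus 1) to 9384 (ceiling at the 90th percentile), and from 8613 to 9008 when each array was left out. With the 99th percentile as ceiling, scavenger genes above it went from 10 to 5, B cell genes from 8 to 5, T cell genes from 4 to 2, plasma cell genes from 3 to 1 and stromal genes from 2 to 1, and the array median plus 1 gave 5, 5, 2, 1 and 1, with neutrophil genes going from 5 to 3. The 90th percentile gave 5 natural killer genes in place of 3 and 1 platelet gene in place of 0, and requiring every array above its ceiling also gave 1 platelet gene. Without probe sets ending in x_at or s_at there were 3 neutrophil, 2 erythroid, 0 mast cell and 1 stromal genes, where the erythroid count had been 4 and the mast cell count 1. An adjusted p under 0.01 left 1 plasma cell and 1 stromal gene. Means of all probe sets, trended and robust variance, and the filter on dim probe sets each left 1 stromal gene. Leaving out each array gave 1 to 3 plasma cell genes, 1 stromal gene, and 143 to 588 genes with an SD over 0.5. With the mean of all probe sets 66 of the 100 brightest genes stayed among them, and the percentiles were 98.5 for Itgax, 99.8 for Cd74, 98.3 for Flt3 and 74.2 for Zbtb46. Without the x_at and s_at probe sets they were 99.8 for Cd74 and 82.5 for Zbtb46. The cause of these moves was not tested beyond the alternatives' own construction. Other counts stayed within 1.5 times their main value. No paired analysis was possible because only 1 group is described.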

Other observations

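Immediate early genes, which cells switch on within minutes of a stimulus, were bright apart from Egr3. They were listed after the values had been seen, so the levels are a description with no test. Of 19 measured genes 16 were among the first 1000 of 17097 ranks, and the median of the 19 was 11.43. Fos read 12.87, 12.85 and 12.91, Dusp1, a phosphatase that ends MAP kinase signals, 12.65, 12.60 and 12.77, and Btg2 12.73, 12.62 and 12.36. The nuclear receptors Nr4a1, Nr4a2 and Nr4a3 averaged 12.64, 11.75 and 11.74, Egr1 11.71, Atf3 11.81 and Jun 11.58. Egr3 read 4.01, near the array median. Whether these signals were present before the sort was not tested.

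Xist, the long RNA of the inactive X chromosome, read 11.69, 11.71 and 11.73, while the Y-linked genes Eif2s3y (3.08), Kdm5d (3.43) and Uty (3.51) were below the ceiling in the mean of the 3 arrays. The labels of these mice give no sex. These 4 genes were chosen after their values were seen.

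Of 16139 probe sets without a single gene symbol 4304 (26.7%) were above the ceiling by limma and 2438 were bright. Of the 16139, 551 have several symbols and 15588 have none. Part of the baseline signal thus lies in probe sets that the annotation used here does not tie to a single gene.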
